A study of Bos taurus with 8 samples.

Results

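Meiotic prophase and synaptonemal complex genes were examined in denuded bovine oocytes at the germinal vesicle stage, collected in summer and in winter. The genes were chosen by symbol from 35 names, and 34 of them were listed among the 26804 genes of the table. RNF212 was not analysed here. The oocytes came from beef cows, Angus by the design text, that were not lactating, had calved before and were kept together, and that were sampled in August and again in winter after synchronisation with a progesterone device and stimulation with follicle-stimulating hormone, a treatment shared by both seasons. The series' design text dates the winter session to January and the methods of the study, which call the cows crossbred, to February, and no ages or alleles were given. To ask how the season relates to the level of these transcripts, the 4 libraries of each season, lettered A, B, C and E for summer and A, B, D and E for winter, were set against each other. Each library pooled RNA from a few oocytes of each of a pair of cows, so the spread is that between pools. Season cannot be told apart from collection session. The study kept oocytes of its better grades and recovered a smaller share of best-grade oocytes in summer. The grades in each pool are not given, so season cannot be told apart from oocyte grade either. Values are TPM, a share of transcripts scaled for gene length, given as mean ± SD (n = 4 per season) or library by library in the order of the letters. A difference is the summer mean less the winter mean of log2(TPM + 1), and the added 1 makes it too small for genes of low level.

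Oocytes of cattle enter meiosis in the fetal ovary and then stop in prophase of the first division for months or years. During that prophase, cohesin rings and axis proteins organise each chromosome, programmed breaks in the DNA start recombination, and the synaptonemal complex zips homologous chromosomes together while crossovers form. Oocytes at the germinal vesicle stage have passed these steps and wait in arrest with a large store of transcripts. Levels here describe transcripts captured from each pool with poly-T beads, rather than active pairing of chromosomes. They do not measure the whole store of the oocyte, and the pools also held transcripts of other cell types.

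Markers of the oocyte were abundant in every library, and their summed level separated the seasons. A list of 31 oocyte genes, such as *GDF9*, *ZP3* and *MOS*, summed to between 25471 and 29612 TPM in summer and between 8051 (winter E) and 18666 TPM (winter B) in winter. Of these 31 genes, 26 were called higher and none lower in summer. Of all 13379 tested genes, 4.40% were called higher and 5.17% lower, the shares to set beside the counts in this paragraph. Cumulus and granulosa genes (24 tested, 2 lower) summed to between 8669.8 and 12349 TPM in summer and between 10110.5 and 39340.5 TPM in winter, the highest being winter E. Only winter E exceeded the summer range, and winter A (11641 TPM), B (10110.5 TPM) and D (11745 TPM) lay within it. The receptor gene *LHCGR* of this list failed the expression limit. It was listed at 0 in every summer library and in winter D, and its highest value was 7.90 TPM (winter E). By contrast, *FSHR* (means of 54.6 and 70.5 TPM), *FOXL2* (113 and 141 TPM), *AMH* (502 and 528 TPM) and *HSD17B1* (1033 and 1061 TPM) were present in all 8 libraries. Their seasons overlapped, whereas for 4 genes of the list every winter library lay above every summer library. Theca and stroma genes (14 tested, 11 lower) summed to between 500.5 and 619.5 TPM in summer and between 764 and 2731 TPM in winter, with *CYP17A1*, an enzyme gene of theca cells, near 0 in both seasons. Other members of that list that theca cells express, *STAR* (means of 308 and 214 TPM) and *INSL3* (107 and 129 TPM), were present in every library of both seasons. Of the 11 genes of that list called lower, *PDGFRB*, *COL3A1*, *DCN*, *THY1*, *DES* and *TAGLN* entered the test through their winter level alone. The count of 11 therefore depends in part on which genes were tested. In pooled samples, fewer cells of a type and less RNA per cell cannot be told apart. The part of these cell type levels in the results below was not tested, apart from the scaling to the oocyte list. The reads behind each value are unknown, because TPM keeps no depth.

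Only some of the prophase genes had transcripts above the expression limit, and within several complexes one partner was abundant while another was near 0. Of the 34 genes, 20 passed the expression limit (zFPKM above -3 in all 4 libraries of a season) and were tested. *SYCP2* passed through summer alone and *TEX15* through winter alone. *SYCP3*, *SPATA22* and *TRIP13* stood above 85.4% or more of tested genes by mean log2 level, whereas *SYCP2* and *TEX15* stood above fewer than 3% of them. *PRDM9*, the histone methyltransferase that places recombination hotspots, was listed at 0 in all 8 libraries. The recombinase gene *DMC1* was listed at 0 in every summer library and in winter A and B, with 0.491 TPM in winter D and 0.574 in winter E. *STRA8*, a gatekeeper of meiotic entry, was above 0 only in winter D (0.515 TPM), and the cohesin gene *RAD21L1* only in winter A (1.07 TPM). *SPO11*, the enzyme that cuts DNA to start recombination, did not exceed 0.438 TPM in any library, and *MEIOB*, whose protein binds single-stranded DNA, did not exceed 0.191 TPM.

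The other untested genes were also low. The cohesin kleisin gene *REC8* was at 1.18, 0.277, 0.151 and 0 TPM in summer and at 3.74, 0.358, 0 and 0.350 TPM in winter, so a winter A value stood far above the rest. *SYCE1*, a central element gene of the synaptonemal complex, was at 4.31, 1.09, 1.84 and 0.366 TPM in summer and was listed at 0 in winter A, B and D, with 0.978 TPM in winter E. The seasons overlapped for *SYCE1* through summer E and winter E. *HORMAD1* and *HORMAD2*, which coat unpaired chromosome axes, reached at most 1.03 and 1.67 TPM. The crossover helicase gene *HFM1* (at most 0.606 TPM), the crossover gene *MSH4* (at most 1.02 TPM) and *MCMDC2*, needed for recombination in mice (at most 0.619 TPM), showed no separation of the seasons. *MEIOC*, which keeps germ cells in meiosis in mice, ranged from 0.586 to 1.71 TPM in summer and from 0.481 to 2.69 TPM in winter.

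**Figure D1:**
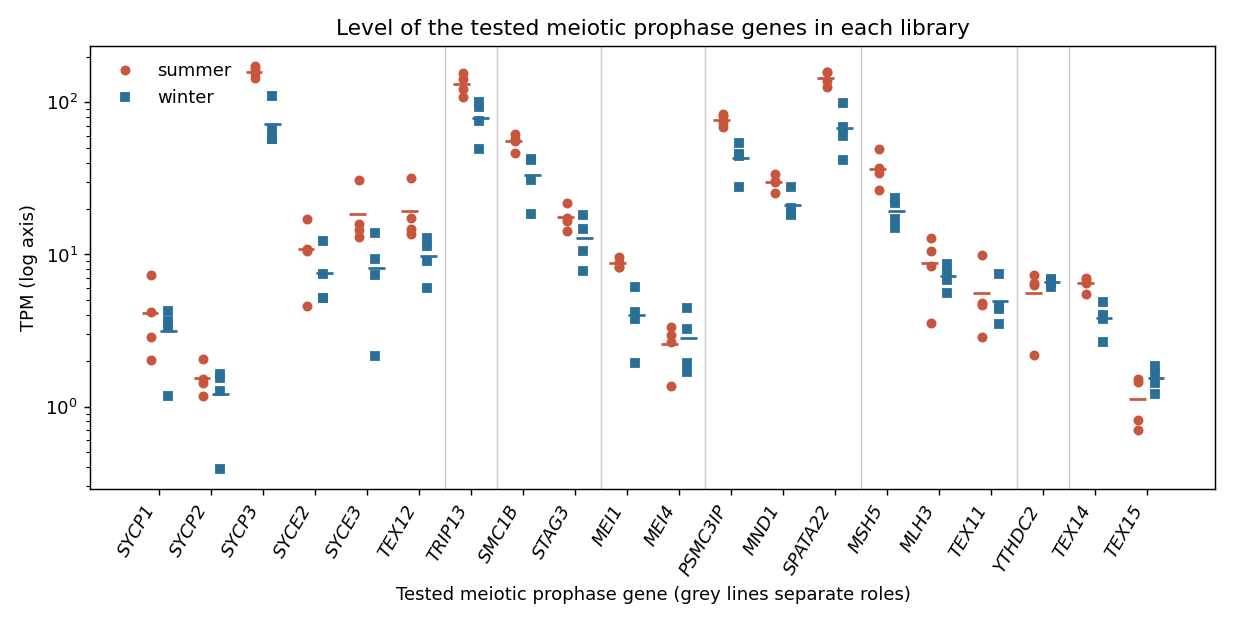
TPM on a log axis for each of the 20 tested prophase genes, grouped by role, with 1 point per library (summer circles, winter squares) and a short line at each season mean. *SYCP3*, *SPATA22* and *TRIP13* are the highest, and for *SYCP3* the summer libraries (143 to 173 TPM) lie above the winter libraries (57.1 to 109 TPM).

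Of the 20 tested genes, 3 were called higher in summer (limma, adjusted p below 0.05 with a change of 2-fold or more), *SYCP3*, *SPATA22* and *MEI1*, where 4.40% of all 13379 tested genes were called higher. None was called lower, where 5.17% of all tested genes were, and none had an unadjusted p under 0.05 with a lower summer level (limma). With the adjusted p alone, 7 were higher (*TRIP13*, *PSMC3IP*, *MSH5* and *SMC1B* in addition) and 0 lower, against 14.9% and 11.9% of all tested genes. In 9 of the 20, every summer library lay above every winter library, against 15.4% of all tested genes. The opposite separation was found in 0 of the 20, against 14.1% of all tested genes. The median difference was 0.57 over the 20 genes, -0.03 over all tested genes and 1.16 over the oocyte list. The count of 3 changed with single libraries and was 5 without winter B, where *TEX12* (1.01) and *SYCE3* (1.51) joined, and 1 without winter E. The count over all 13379 tested genes moved in the same direction. It was 589 with all libraries, 983 without winter B and 271 without winter E. The count of 7 was 10 without winter B, 3 without winter D and 4 when summer B, C or E was omitted. For these counts by the adjusted p alone, the shares over all genes are not given here. The cows were sampled in both seasons, and the study left out a failed summer oocyte replicate together with its corresponding winter replicate. The sources do not say, however, that a letter marks the same animals. With the letter as a block, summer C and winter D had no partner. The season difference then rested on letters A, B and E alone. In that fit the count of 3 was 2, and the count of 7 was also 2, *SYCP3* and *SPATA22*. There *MEI1*, *TRIP13*, *PSMC3IP*, *MSH5* and *SMC1B* had adjusted p from 0.0721 to 0.155 (limma).

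All 6 tested genes of the synaptonemal complex had a higher mean in summer, as did 6470 of all 13379 tested genes. *SYCP2*, among the 6, was tested only through its summer level. Of the 6, 1 passed the test, *SYCP3*. *SYCP3*, which builds the lateral elements along each chromosome, was at 155, 165, 143 and 173 TPM in summer and at 66.2, 109, 57.1 and 57.2 TPM in winter. All summer libraries were higher than winter B, the highest winter library, and the difference was 1.18 (SE 0.20, adjusted p = 0.00544, limma). Its call held with each library left out in turn (differences from 1.08 to 1.39). *SYCP3* overlaps *CHPT1* in RefSeq, which differed by -0.26. *SYCP2*, the lateral element partner of *SYCP3*, was far lower, at 1.51, 1.44, 1.17 and 2.07 TPM in summer and 1.65, 1.54, 1.27 and 0.388 TPM in winter, and the seasons overlapped (difference 0.24, 95% interval -0.44 to 0.91). *SYCP1*, the transverse filament that bridges the paired axes, was at 4.21, 2.89, 7.32 and 2.02 TPM in summer and 3.68, 4.26, 3.38 and 1.17 TPM in winter (difference 0.28, 95% interval -0.58 to 1.14).

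The central element genes *SYCE3*, *TEX12* and *SYCE2*, whose products hold the middle of the complex together, lay between *SYCP3* and *SYCP1* in mean level, unlike *SYCE1*. *SYCE3* was at 30.8, 14.5, 15.8 and 13.0 TPM in summer and at 2.17, 13.9, 7.28 and 9.30 TPM in winter. Its summer A value stood apart from the other summer libraries, and winter B lay above summer E. The difference of *SYCE3* was 1.21 with a wide error (SE 0.45, adjusted p = 0.0667, limma). *TEX12*, the partner of SYCE2 in the central element, was at 31.7, 13.7, 17.2 and 14.6 TPM in summer and at 11.4, 12.7, 9.04 and 6.04 TPM in winter. The seasons did not overlap for *TEX12*, and the difference of 0.88 did not pass the test (SE 0.31, adjusted p = 0.0563, limma). Summer A was the highest summer library for *TEX12* as for *SYCE3*. *SYCE2* was at 10.8, 10.6, 17.1 and 4.61 TPM in summer and 5.21, 12.3, 7.46 and 5.18 TPM in winter, with summer E as the lowest library of all (difference 0.42, adjusted p = 0.420, limma). *SYCE2* overlaps *GCDH* in RefSeq, which averaged 18.2 ± 3.04 TPM in summer, against 17.8 ± 3.17 in winter (difference 0.03). Their reads cannot be told apart where the strand is not kept.

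*TRIP13*, the ATPase that strips HORMAD proteins from synapsed axes and that also acts in the spindle checkpoint, was abundant although both *HORMAD* genes were near 0. It was at 108, 155, 142 and 122 TPM in summer and at 99.8, 93.8, 75.1 and 49.0 TPM in winter. No winter library reached a summer value. Its difference of 0.76 (SE 0.22, adjusted p = 0.0283, limma) was below the 2-fold limit, and the adjusted p ranged from 0.0216 to 0.0813 with each library left out.

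Meiotic cohesin was represented by *SMC1B* and *STAG3*, and not by its kleisins. *SMC1B*, the meiotic form of the SMC1 subunit, was at 57.1, 46.4, 62.2 and 55.9 TPM in summer and at 42.4, 41.7, 30.9 and 18.3 TPM in winter. The seasons did not overlap, with winter E the lowest, and the difference was 0.78 (SE 0.25, adjusted p = 0.0405, limma), below the 2-fold limit. With each library left out, the adjusted p of *SMC1B* ranged from 0.0277 to 0.0969 (limma), and the difference was 0.53 without winter E. *STAG3*, the meiotic form of the STAG subunit, was at 14.2, 17.5, 21.8 and 16.5 TPM in summer and at 10.5, 14.7, 18.2 and 7.75 TPM in winter. Winter D lay above summer A, B and E, and the difference of 0.47 was within its error (95% interval -0.11 to 1.06, adjusted p = 0.201, limma).

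The general forms of these subunits serve cohesin in all dividing cells. *STAG2* was lower in summer, at 8.92, 14.5, 17.0 and 15.6 TPM against 27.4, 20.2, 25.0 and 25.1 TPM in winter (difference -0.79, SE 0.22, adjusted p = 0.0265, limma). This passed the adjusted p but not the 2-fold limit. *STAG1* differed by -0.56 (adjusted p = 0.0843, limma), *SMC3* by -0.31, *SMC1A* by -0.22 and the kleisin gene *RAD21* by 0.13, all with adjusted p of at least 0.0843. *RAD21* averaged 174 ± 14.9 TPM in summer, against 159 ± 11.7 in winter.

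Ratios of (TPM + 1) within a library depend little on its scaling for abundant genes, and 6 pairs of genes with a mean of at least 1 TPM each were compared in this way. The log2 ratio of *STAG3* to *STAG2* was 0.62, 0.25, 0.34 and 0.08 in the summer libraries and -1.30, -0.44, -0.44 and -1.58 in the winter libraries. Thus *STAG3* exceeded *STAG2* in each summer library and lay below it in each winter library. The ratio differed by 1.26 (two-sided exact permutation p = 0.0286, the smallest this design allows, and 0.0571 after adjustment over the 6 pairs). The ratio of *STAG3* to *STAG1* differed by 1.03, with summer values from 0.41 to 0.83 and winter values from -1.04 to 0.34, and that of *SYCP3* to *SYCP2* by 0.94, from 5.83 to 6.09 in summer and 4.66 to 5.44 in winter. Both had the same exact permutation p of 0.0286 (adjusted 0.0571). The low level of *SYCP2* makes its ratio to *SYCP3* depend on the added 1, and the difference was 0.73 with 0.1 added and 0.67 with nothing added. For *SMC1B* over *SMC1A* the seasons overlapped, with 1.94 ± 0.52 in summer and 0.94 ± 0.74 in winter (exact permutation p = 0.0857, adjusted 0.103). *SYCP3* over *SYCP1* differed by 0.90 (exact permutation p = 0.114), and the values of 1 further pair are not reported here. None of the 6 passed after adjustment, and 3 had an unadjusted p under 0.05.

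**Figure D2:**
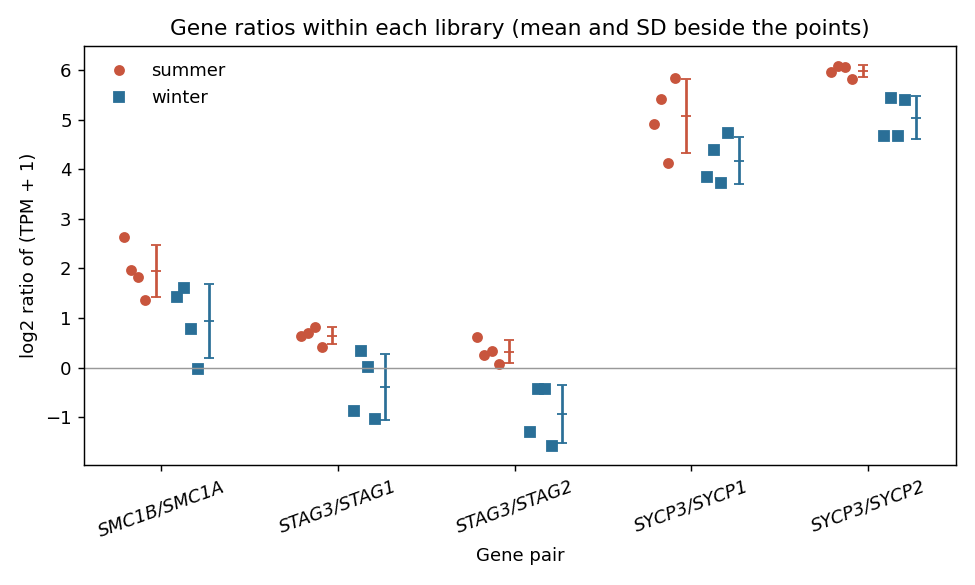
Log2 ratio of (TPM + 1) for 5 of the 6 gene pairs within each library (summer circles, winter squares, n = 4 each), with the mean and SD beside the points. The *STAG3*/*STAG2* values are above 0 in every summer library (0.08 to 0.62) and below 0 in every winter library (-1.58 to -0.44).

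Among genes that start and process recombination, *MEI1* and *SPATA22* were higher in summer. *MEI1*, needed in mice for the DNA breaks of meiosis, was at 9.57, 8.30, 8.93 and 8.33 TPM in summer and at 3.76, 6.12, 4.20 and 1.92 TPM in winter. The narrow summer range lay wholly above the winter range, and the difference was 1.04 (SE 0.29, adjusted p = 0.0251, limma). The call of *MEI1* held only without winter A or winter B. Omitting any of the other 6 libraries ended it, with differences down to 0.80 (without winter E) and adjusted p up to 0.0607 (without summer B, limma). *MEI4*, which acts in the same step in mice, was at 3.36, 2.64, 2.97 and 1.36 TPM in summer and 3.21, 1.70, 4.45 and 1.94 TPM in winter, without separation of the seasons (difference -0.07, 95% interval -0.79 to 0.65).

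*SPATA22* works with MEIOB on single-stranded DNA in mice, and it was abundant where *MEIOB* was near 0. It was at 158, 157, 138 and 125 TPM in summer and at 68.9, 99.4, 59.8 and 41.9 TPM in winter. Summer E, the lowest summer library, still lay above winter B, and the difference was 1.15 (SE 0.23, adjusted p = 0.00771, limma). Without winter E it was 0.95 and fell short of the 2-fold limit (adjusted p = 0.0130, limma).

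*PSMC3IP* and *MND1* encode the partners that help the recombinase DMC1 in strand exchange. *PSMC3IP* was at 69.1, 72.8, 83.8 and 81.0 TPM in summer and at 45.8, 54.3, 44.3 and 27.7 TPM in winter. Its seasons did not overlap (difference 0.85, SE 0.20, adjusted p = 0.0125, limma). *MND1* was at 30.6, 33.8, 30.1 and 25.4 TPM in summer and at 18.2, 27.8, 18.6 and 20.2 TPM in winter, and winter B lay above summer E (difference 0.50, SE 0.18, adjusted p = 0.0688, limma). *PSMC3IP* overlaps *MLX* in RefSeq, where *MLX* differed by 0.19 between the seasons.

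Of the crossover genes, *MSH5* was higher in summer while *MLH3* and *TEX11* overlapped between the seasons. *MSH5*, whose protein clamps recombination intermediates together with MSH4, was at 49.4, 34.1, 26.4 and 36.8 TPM in summer and at 21.8, 23.4, 14.8 and 17.2 TPM in winter. All summer values were above all winter values, and the difference of 0.88 (SE 0.22, adjusted p = 0.0182, limma) was below the 2-fold limit, which it passed without summer C (1.02). With each library left out, the adjusted p of *MSH5* ranged from 0.0156 to 0.0547 (limma), the highest without winter D. *MSH5* overlaps *CLIC1* in RefSeq, which averaged 239 ± 32.4 TPM in summer, against 277 ± 42.2 in winter (difference -0.21), and reads of overlapping genes cannot be told apart where the strand is not kept. *MLH3*, which acts in the cutting of crossover intermediates, was at 3.52, 8.42, 10.5 and 12.8 TPM in summer and 5.61, 8.59, 7.71 and 6.83 TPM in winter, with summer A and summer E as the lowest and highest of all libraries (difference 0.16, adjusted p = 0.739, limma). *TEX11*, a crossover gene on the X chromosome in mice, ranged from 2.85 to 9.87 TPM in summer and from 3.51 to 7.39 TPM in winter (difference 0.07, 95% interval -0.69 to 0.83).

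The remaining tested genes lay below 10 TPM. *TEX14*, which keeps the bridges between germ cells open in mice, was at 6.53, 5.46, 6.99 and 6.79 TPM in summer and at 4.85, 4.01, 3.78 and 2.68 TPM in winter. Its seasons did not overlap, and its difference of 0.64 missed the threshold (SE 0.24, adjusted p = 0.0713, limma). *TEX14* overlaps *MGC137055* in RefSeq, which differed by 1.03 (adjusted p = 0.0234, limma). It also overlaps *RAD51C*, which differed by 0.57 (adjusted p = 0.107, limma). Both had higher means than *TEX14* in each season, and their reads cannot be told apart from its own where the strand is not kept. *YTHDC2*, the RNA helicase that acts with MEIOC, was at 2.19, 6.48, 6.32 and 7.31 TPM in summer and at 6.12, 6.92, 6.47 and 6.78 TPM in winter, where summer A alone stood low (difference -0.29, 95% interval -0.99 to 0.41). *TEX15*, which acts in transposon silencing in the mouse germ line, ranged from 0.702 to 1.53 TPM in summer and from 1.22 to 1.85 TPM in winter (difference -0.27, adjusted p = 0.481, limma).

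**Figure D3:**
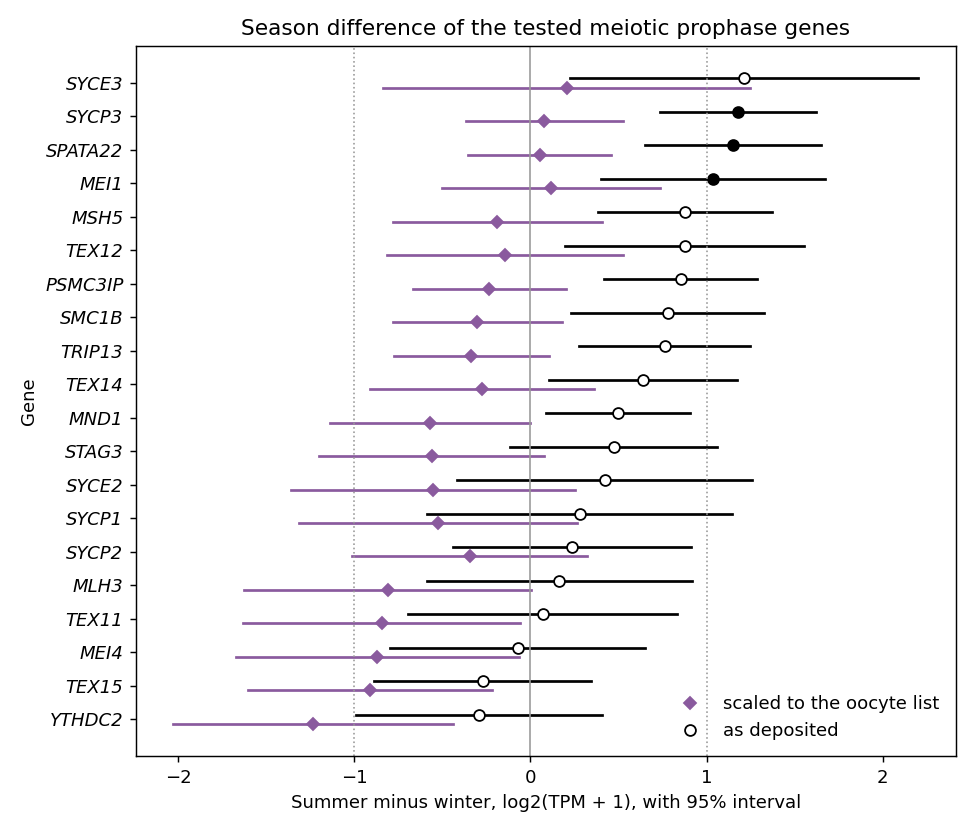
Summer minus winter difference with its 95% interval on the log2(TPM + 1) scale for the 20 tested genes (black circles, filled where called) and the same difference after each library was scaled to the oocyte list (purple diamonds), with dotted lines at the 2-fold limit. *SYCP3* moves from 1.18 to 0.08 and *YTHDC2* from -0.29 to -1.23.

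Among the winter libraries, the extremes of these genes were often those of the oocyte list. Of the 20 tested genes, 12 had their highest winter value in winter B and 12 their lowest in winter E, the libraries where the oocyte list summed to its highest and lowest winter level. The same counts over all tested genes are not given here, so this order cannot be called particular to the 20 genes. In summer the orders differed: the oocyte list had its highest mean in summer B, where 3 of the 20 genes had their highest summer value, and its lowest in summer C, where 6 did. The summed level of the 34 genes was between 724 and 768 TPM in summer and between 291 (winter E) and 545 TPM (winter B) in winter. Set against 1000 TPM of the oocyte list, the 34 genes together stood at 28.0, 25.9, 29.6 and 25.5 TPM in summer and at 31.5, 29.2, 32.8 and 36.2 TPM in winter. On that basis winter E was the highest library, and summer C lay above winter B. Per 1000 TPM of the oocyte list, *SPATA22* averaged 5.24 ± 0.598 TPM in summer, against 5.14 ± 0.165 in winter, and *SYCP3* 5.76 ± 0.227, against 5.64 ± 1.09. The same measure was 0.201 ± 0.0819 in summer and 0.551 ± 0.208 in winter for *YTHDC2*, and 4.78 ± 0.746 and 6.17 ± 0.882 for *TRIP13*.

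After every library was scaled to the same mean level of the oocyte list, none of the 20 genes was called higher in summer, and 1, *YTHDC2*, was called lower (difference -1.23, SE 0.37, adjusted p = 0.0108, limma). This scaling shifted the median of all tested genes to -1.04 and called 0.0523% of them higher and 51.1% lower, so these differences are relative to the oocyte genes. The median over the 20 genes was then -0.34. *SYCP3* differed by 0.08 (95% interval -0.36 to 0.52), *SPATA22* by 0.05 (-0.36 to 0.46), *MEI1* by 0.12 (-0.50 to 0.73) and *SYCE3* by 0.21 (-0.84 to 1.25), while the other 16 lay below 0. *TEX15* (-0.91, adjusted p = 0.0233, limma) passed the adjusted p without reaching the 2-fold limit. It was tested through its winter level alone and was low, with unscaled means of 1.12 TPM in summer and 1.53 in winter. By the adjusted p alone, 2 of the 20 genes passed, beside 9134 of all 13379 tested genes. *MEI4* (-0.87), *TEX11* (-0.85), *MND1* (-0.57) and *MLH3* (-0.81) followed with adjusted p between 0.0520 and 0.0714 (limma).

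**Figure D4:**
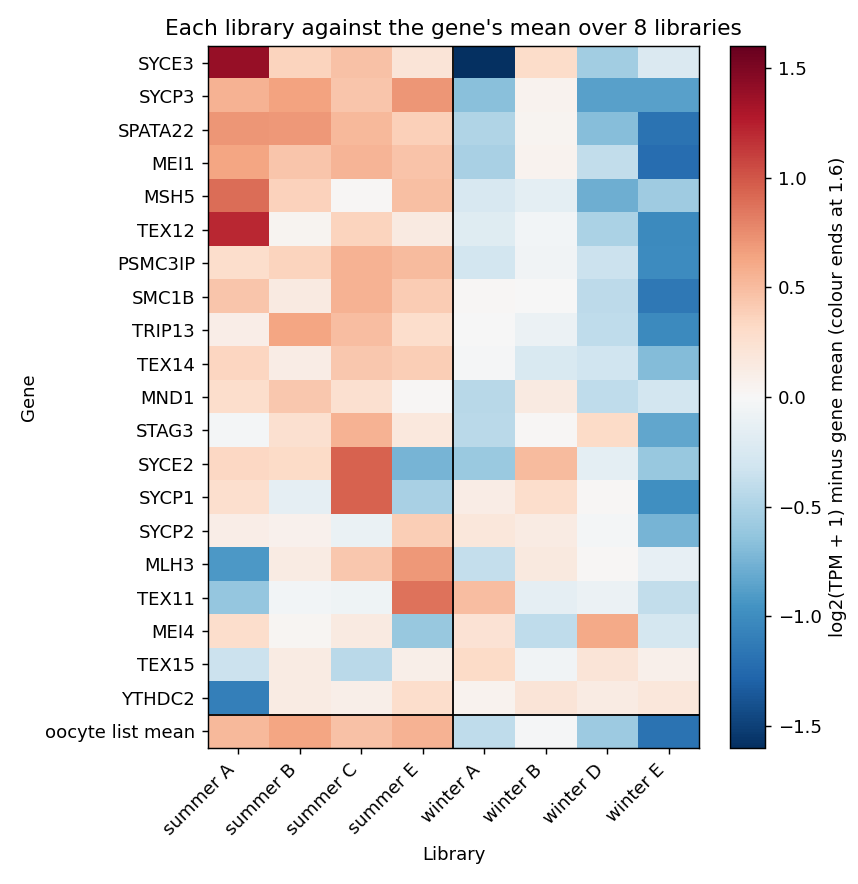
Colour shows log2(TPM + 1) of each tested gene in each library minus the gene's mean over the 8 libraries, with genes ordered by their season difference and the mean of the oocyte list in the bottom row. Winter E is the lowest and winter B the highest winter library for 12 of the 20 genes each, and the bottom row has the same extremes.

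Other prophase genes, taken from a list beside the 34, were also higher in part. Of 19 tested, 2 were called higher and none lower, beside 4.40% and 5.17% of all tested genes, and 7 were higher by the adjusted p alone, beside 14.9%, with a median of 0.67. *PRR19*, a crossover gene in mice, was at 97.5, 105, 88.4 and 109 TPM in summer and at 31.3, 57.2, 32.6 and 35.5 TPM in winter, a clear separation (difference 1.37, SE 0.19, adjusted p = 0.00356, limma). *REC114*, a partner of MEI4 in break formation in mice, was at 17.3, 18.6, 10.5 and 13.3 TPM in summer and at 6.99, 11.3, 2.38 and 2.15 TPM in winter, where winter B overlapped summer C (difference 1.45, SE 0.43, adjusted p = 0.0310, limma). *ZCWPW1*, a reader of the marks that PRDM9 sets in mice (0.89), and *RBM46*, an RNA-binding protein of germ cells (0.95), were below the 2-fold limit. The most abundant of the list, the chaperone gene *HSPA2*, averaged 149.7 ± 7.48 TPM in summer, against 87.8 ± 33.9 in winter (difference 0.84, adjusted p = 0.0276, limma).

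General cohesin genes and their regulators had 1 of 18 called higher and none lower, beside 4.40% and 5.17% of all tested genes, with a median of 0.02. *PTTG1*, which encodes securin, the inhibitor of the protease that opens cohesin, averaged 2314 ± 192 TPM in summer, against 1059.6 ± 363 in winter (difference 1.18, adjusted p = 0.00688, limma), and was the most abundant gene of the list. *SGO1*, the protector of centromeric cohesin (0.99), the acetyltransferase gene *ESCO2* (0.64) and the separase gene *ESPL1* (0.58) were higher by the adjusted p alone, and *STAG2*, above, was lower. General recombination and mismatch repair genes had none of 29 called in either direction (limma), although 10 were higher and 0 lower by the adjusted p alone, beside 14.9% and 11.9% of all tested genes, with a median of 0.42. Among them were the nuclease gene *MUS81* (0.90) and the recombination mediator gene *PALB2* (0.81). The most abundant, the replication protein gene *RPA3*, averaged 295 ± 31.3 TPM in summer, against 281 ± 64.6 in winter (0.09).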

How the data were processed

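The authors deposited TPM per gene for 8 oocyte libraries, and each library sums to 1000000. The study's methods describe read trimming, mapping and trimmed-mean scaling in CLC Genomics Workbench, whereas bcl2fastq, DESeq2, Bowtie2 2.2.2 and build ARS-UCD1.2 appear in the processing notes of the submitters. Which of these made the table is not given in the sources used here. TPM holds no depth, so counting error is unknown. Groups came from the titles. Genes with zFPKM above -3 in all 4 libraries of at least 1 season (13379) entered a limma 3.58.1 fit (R 4.3.3) of log2(TPM + 1) on season alone, with a variance trend and Benjamini-Hochberg adjustment over all tested genes. Calls required an adjusted p below 0.05 with a change of 2-fold or more. Gene ratios were compared by exact permutation. Scaling to the oocyte list multiplied each library by a factor that gave 31 oocyte genes the same mean log2(TPM + 1). Members and lists were chosen with earlier results of these data known. Every member was named with its values, and from the other lists the called genes, those with the smallest p and the most abundant gene; *STAG1*, *SMC3*, *SMC1A*, *RAD21* and overlapping genes were named as comparisons. Symbols of all 34 genes matched RefSeq for ARS-UCD2.0, used only for overlaps, and 13 overlapped another gene. Alternatives were other pseudocounts, filters, scalings and moderation, a block for the library letter, and omission of each library. The fit was tested on simulated data. Some genes of the lists are counted and are not reported here by name.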

Additional observations from a re-analysis of the deposited data

Results flagged for a closer look

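In 1 of the 40 groups of 4 libraries examined among the 20 tested genes, an extreme library stood apart from the others by Dixon's test at its 95% limit, and chance alone marks about 1 group in 20. *SYCE3* in summer A, at 30.8 TPM, lay well above the next summer library at 15.8 TPM, while the lowest summer library held 13.0 TPM.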

How the results depend on the processing

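Under pseudocounts of 0.1 and 0.5, a filter of at least 1 TPM, quantile and median-of-ratios scaling and moderation without a trend, 3 genes were called higher and 0 lower, and with no filter 2 were higher. Scaling to the oocyte list gave 0 higher, 1 lower and a median of -0.34, by construction relative to genes that were themselves higher in summer. It also turned 13 differences below 0: *MND1* (-0.57), *SYCP2* (-0.34), *TRIP13* (-0.34), *TEX14* (-0.28), *STAG3* (-0.56), *SYCE2* (-0.56), *TEX11* (-0.85), *TEX12* (-0.15), *MLH3* (-0.81), *MSH5* (-0.19), *PSMC3IP* (-0.23), *SMC1B* (-0.30) and *SYCP1* (-0.52). With no fold limit 7 genes were higher. Leaving out each library gave between 1 (winter E) and 5 (winter B) genes higher and 0 lower. Of all 13379 tested genes, 271 were higher and 627 lower without winter E, and 983 and 756 without winter B. Leaving out single libraries also gave differences that crossed 0 for *YTHDC2* (-0.44 to 0.024), *TEX11* (-0.21 to 0.29), *MLH3* (-0.039 to 0.50), *SYCP1* (-0.0026 to 0.50) and *MEI4* (-0.22 to 0.12). *MEI4* also differed by 0.12 after quantile normalization. The cause of these changes was not tested. No gene ratio passed the adjusted threshold with 0.1 or nothing added or with a mean of at least 5 TPM, but 4 libraries against 4 can hardly pass it, and with a library left out the ratios are values with no test.

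Letters shared by the seasons were not shown to pair the libraries: deviations from the season means correlated at 0.05 for A, 0.14 for B and 0.20 for E, and each of these summer libraries correlated best with the winter library of its letter. With the letter as a replicate block, 2 genes were called higher, *SYCP3* (1.13) and *SPATA22* (1.13), 0 were lower, and *MEI4* differed by 0.055. Quantile normalization moved the split over all genes to 722 higher and 585 lower. Across all genes, 179 were higher and 296 lower under the block, against 589 and 692 without it.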
